A study of Mus musculus with 6 samples.

Results

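Interleukin-6-type cytokine genes, their receptor genes and the cytokine subunit gene Il23a were examined in mouse cumulus-oocyte complexes (COCs) treated with the MTOR kinase inhibitor Torin1. The 10 genes were chosen by name, with earlier results of these data known, and comprised 4 ligand genes (Il6, Il11, Lif and Il23a), 4 receptor genes (Il6ra, Il6st, Lifr and Osmr), the feedback inhibitor gene Socs3 and the transcription factor gene Stat3. All 10 were found among the 22180 genes measured. Each was read from a probe set naming that gene alone, and only Socs3 had more than 1 such probe set. Of the 4 ligand genes 3 rose with Torin1, while 5.13% of all genes did. Il23a rose most among the ligands and was 24.2-fold higher. The shared signalling receptor gene Il6st stayed within 0.18 log2 units of no change by its 95% confidence interval.

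The data were 6 arrays, from 3 Torin1 and 3 DMSO samples of COCs, the oocytes of antral follicles enclosed by their cumulus cells. Torin1-treated COCs received 5 µM Torin1 and their controls the solvent DMSO, and both came from wildtype female mice primed with 5 IU of eCG, a hormone that drives follicle growth, for 46 h. The labels place the age at 21 days in one field and 23 days in another, and the culture at 14 h in one and 16 h in another. Both groups were cultured as 100 COCs with 3 mg/ml serum albumin and 5 µM milrinone, a PDE3 inhibitor that holds oocytes in meiotic arrest, so that all values come from complexes kept in that arrest. No label says whether the samples of a group came from separate mice or cultures, so p-values measure no more than how these samples vary, and that variation may be technical. Torin1 sample 3 stood apart. It lay at -30.4 on the second principal component, which took 16.5% of the variance, whereas Torin1 samples 1 and 2 lay at 14.1 and 19.8, and its description repeats the short name of sample 2.

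Cytokines of the IL6 family signal through receptor complexes that contain the chain gp130, the product of Il6st. A ligand-specific chain is added to it, IL6RA for IL6, LIFR for LIF, and OSMR for oncostatin M. The complexes activate Janus kinases, these phosphorylate STAT3, and STAT3 induces SOCS3, which in turn blocks the receptor complex. Interleukin-23 is a relative built from the product of Il23a, a helical subunit similar to IL6, and a partner chain encoded by Il12b. Its specific receptor chain is encoded by Il23r. In the mouse ovary, IL6 and LIF are known as factors that cumulus cells make around ovulation and that can promote expansion of the COC.

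Levels are given as log2(intensity + 1) of the probe set, and changes as the log2 difference, Torin1 minus DMSO, with its standard error (SE). A gene is said to be called, and to have risen or fallen, where limma's test across all genes gave a Benjamini-Hochberg adjusted p below 0.05. Levels of different genes cannot be compared, since probe sets differ in brightness. The mean level of the median gene, 4.17, serves only to mark which probe sets are dim. Of the 10 genes 4 were called higher, 0 lower and 6 were not called, while limma called 5.13% of all genes higher, 6.94% lower and 12.1% in either direction. At an unadjusted p below 0.05 in limma, 6 were higher and 0 lower, while 11.3% of all genes were higher and 12.7% lower. The median change over the 10 genes was 0.58, against 0.01 over all genes. Of the 10 genes 6 had no overlap between groups, all 6 with Torin1 higher; 28.6% of all genes showed no overlap, and 14.3% showed it with Torin1 higher. In such bulk samples, fewer cells of a type and less RNA per cell cannot be told apart.

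**Figure D1:**
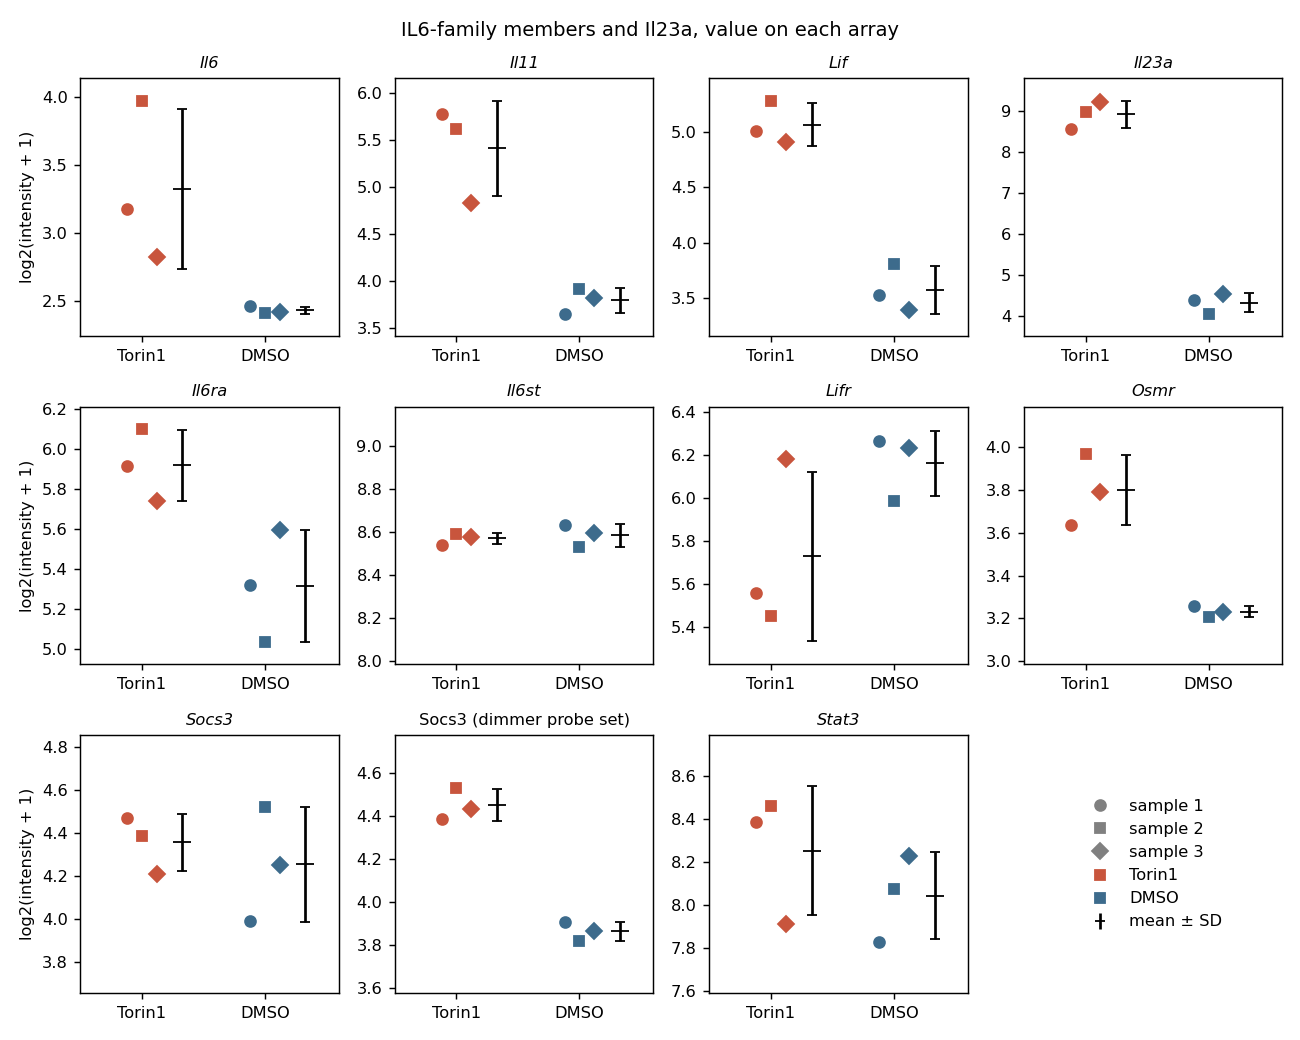
Level of each gene on each of the 6 arrays, as log2(intensity + 1), with the mean ± SD beside the 3 samples of a group and a separate vertical scale in each panel; the second probe set of Socs3 has its own panel. All 3 Torin1 samples lay above all 3 DMSO samples for Il6, Il11, Lif, Il23a, Il6ra and Osmr, and Torin1 sample 3 lay among the DMSO samples for Lifr.

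Il23a (probe set 17246091; chromosome 10 in RefSeq's GRCm38.p6 annotation) encodes the p19 subunit of interleukin-23. It measured 8.57, 8.97 and 9.22 in Torin1 samples 1, 2 and 3, against 4.39, 4.05 and 4.52 in DMSO samples 1, 2 and 3. The groups lay far apart, and the DMSO values were close to the level of the median gene. The change was 4.60 ± 0.19 (SE), with a 95% confidence interval of 4.15 to 5.05 and an adjusted p of 5.5e-05 in limma. By size it was the rise of rank 5 among the 1138 genes called higher.

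The gene of the partner chain, Il12b, was not called. It measured 3.48, 3.08 and 3.39 in Torin1 samples and 3.02, 3.34 and 3.08 in DMSO samples, which overlap, all below the median gene. Its change of 0.17 ± 0.13 (SE) had an adjusted p of 0.555 in limma. Il23r, the specific receptor chain of interleukin-23, averaged 3.47 ± 0.12 in Torin1 and 3.46 ± 0.15 in DMSO samples (SD, n = 3 each). Among the 5 measured genes for IL12 and IL23 chains and receptors, limma called 0 in either direction, and 0 passed at an unadjusted p below 0.05. Over all genes 12.1% were called in either direction. Their median change was 0.05, and all 5 had a mean below the median gene.

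Il11 (probe set 17485924; chromosome 7) encodes a ligand known for its part in preparing the mouse uterus for implantation. Its level was 5.78, 5.62 and 4.84 in Torin1 samples 1, 2 and 3, against 3.66, 3.92 and 3.82 in DMSO samples. Torin1 sample 3 was the lowest of its group but still above every DMSO sample. The gene was 3.06-fold higher, a change of 1.61 ± 0.24 (SE, adjusted p = 0.00593 in limma), and 1.90 ± 0.11 without Torin1 sample 3.

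Lif (probe set 17246810; chromosome 11) encodes leukemia inhibitory factor, which mouse embryos need from the uterus in order to implant. It measured 5.01, 5.29 and 4.91 in Torin1 samples and 3.52, 3.81 and 3.39 in DMSO samples. The 3 Torin1 samples were close together and lay above all DMSO samples, which were below the median gene. Lif was 2.82-fold higher, a change of 1.50 ± 0.14 (SE) with an adjusted p of 0.00105 in limma.

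Il6 (probe set 17435725; chromosome 5), the founding ligand of the family, was dim. It measured 3.17, 3.97 and 2.82 in Torin1 samples 1, 2 and 3, against 2.46, 2.41 and 2.42 in DMSO samples, with every value below the median gene. All Torin1 samples lay above the DMSO samples, which were nearly equal, but the Torin1 samples spread widely. The change of 0.89 ± 0.27 (SE) was not called (adjusted p = 0.0788 in limma; 95% confidence interval 0.27 to 1.52). Leaving out Torin1 sample 2, the highest, gave 0.57 with an adjusted p of 0.0421, and leaving out Torin1 sample 3, the lowest, gave 1.14 with an adjusted p of 0.0155. With Torin1 samples 2 and 3 averaged as 1, the change was 0.86 (adjusted p = 0.00209).

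The sizes of these changes depend on the pseudocount, because the DMSO levels were low. With 16 added in place of 1 before taking log2, the change was 1.01 for Il11, 0.85 for Lif, 0.31 for Il6 and 3.83 for Il23a; Il11, Lif and Il23a were called as before, and Il6 was not (adjusted p = 0.206).

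**Figure D2:**
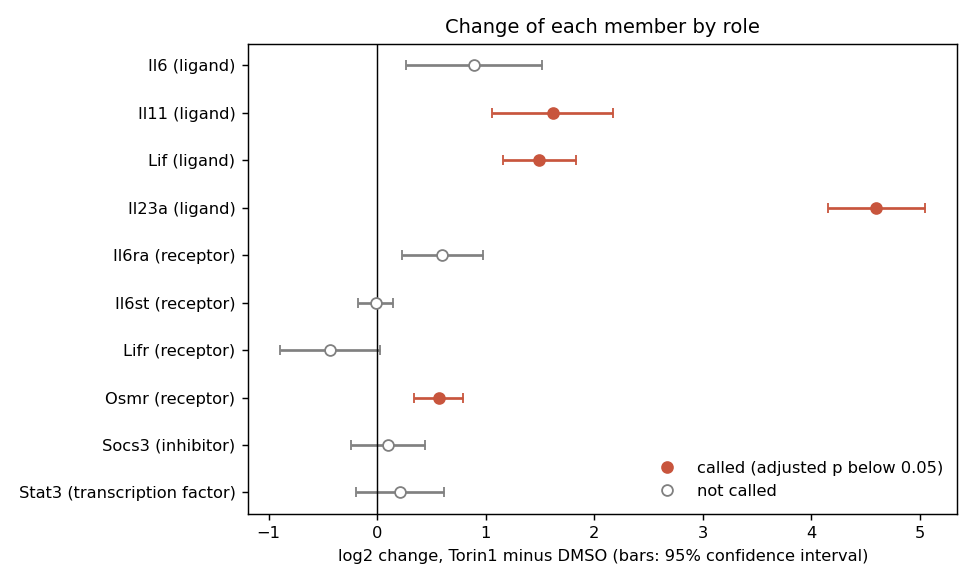
Log2 change of each gene, Torin1 minus DMSO, with its 95% confidence interval from limma, ordered by role from ligands to signalling genes. Filled points are called, and these are Il11, Lif, Il23a and Osmr, with changes from 0.57 to 4.60, while the interval of Il6st is the narrowest and spans 0.

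Promoter sequence was read because Il11 and Lif rose and Il6 lay above all DMSO samples. RefSeq's start sites (GRCm38.p6) matched 9 of the 10 genes, with 11 start sites between them, and the 250 bases before each start were searched on both strands. Il23a was the gene without a match. The motifs were the AP-1 site TGANTCA, the CRE half-site TGACG, the STAT site TTCNNNGAA, the C/EBP site TTNNGNAAT, the EGR site GCGNGGGCG, the TATA box TATAAA and GGGNNTTTC as a short form of the NF-kappa B site. The 3 ligand promoters and that of Socs3 are printed 5′ to 3′ on the gene's strand, with all matches in capitals; the Il11 window is that of the downstream of its 2 start sites.
Il6 (chr5:30012864-30013113, plus strand): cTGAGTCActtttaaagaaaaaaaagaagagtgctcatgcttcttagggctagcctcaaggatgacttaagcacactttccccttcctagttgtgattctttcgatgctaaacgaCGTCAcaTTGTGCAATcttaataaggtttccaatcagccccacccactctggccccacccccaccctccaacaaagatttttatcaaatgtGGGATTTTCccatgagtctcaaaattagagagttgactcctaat
Il11 (chr7:4778142-4778391, minus strand): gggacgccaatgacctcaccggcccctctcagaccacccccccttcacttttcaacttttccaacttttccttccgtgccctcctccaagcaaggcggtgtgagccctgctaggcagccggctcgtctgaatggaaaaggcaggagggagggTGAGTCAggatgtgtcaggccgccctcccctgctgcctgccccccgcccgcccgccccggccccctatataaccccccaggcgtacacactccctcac
Lif (chr11:4257318-4257567, plus strand): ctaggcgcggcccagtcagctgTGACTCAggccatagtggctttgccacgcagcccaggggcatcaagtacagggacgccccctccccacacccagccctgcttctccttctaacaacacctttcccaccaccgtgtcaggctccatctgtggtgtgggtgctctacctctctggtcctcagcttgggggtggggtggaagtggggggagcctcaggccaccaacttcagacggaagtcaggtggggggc
Socs3 (chr11:117969367-117969616, minus strand): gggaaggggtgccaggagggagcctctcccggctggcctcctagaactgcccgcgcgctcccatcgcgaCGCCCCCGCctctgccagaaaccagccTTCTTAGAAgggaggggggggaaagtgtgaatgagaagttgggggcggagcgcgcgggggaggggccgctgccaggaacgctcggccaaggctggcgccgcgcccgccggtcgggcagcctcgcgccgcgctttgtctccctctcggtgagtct

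Each of the 3 ligand promoters holds the letters of an AP-1 site, which 6.75% of all 32851 such windows hold. The match begins 249 bases before the start in Il6, 98 bases before it in Il11 and 228 bases before it in Lif, and the window of the upstream Il11 start holds none of the motifs. None of the windows of Il6ra, Il6st, Lifr, Osmr, Socs3 and Stat3 holds an AP-1 match. The Il6 window holds 3 further matches, a CRE half-site 135 bases before the start, a C/EBP site 128 bases before it and an NF-kappa B match 44 bases before it. Those motifs occur in 17.8%, 10.2% and 3.72% of all windows, and the C/EBP and CRE half-site letters lie close to each other, and no matches overlap. Socs3 holds a STAT match 154 bases before the start, a motif found in 7.02% of windows, and an EGR match, found in 4.7%. Lifr also holds an EGR match, 91 bases before 1 of its 2 starts, and Il6ra a CRE half-site 236 bases before its start. No member window holds the exact letters TATAAA, found in 12.4%. Other forms of the TATA box were not searched, among them the letters TATATAA near the end of the printed Il11 window. The motifs were chosen with the expression results known, and a match is a run of letters, not a measured binding site.

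Among the receptor genes 1 of 4 rose, while limma called 5.13% of all genes higher. Osmr (probe set 17315743; chromosome 15), the chain that joins gp130 to bind oncostatin M, measured 3.64, 3.97 and 3.79 in Torin1 samples and 3.26, 3.21 and 3.23 in DMSO samples. The groups did not overlap, the DMSO samples were nearly equal, and all 6 values were below the median gene. The change was 0.57 ± 0.10 (SE, adjusted p = 0.0110 in limma), or 0.25 with a pseudocount of 16 (adjusted p = 0.0268).

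Il6ra (probe set 17407138; chromosome 3), the chain that gives specificity for IL6, had 5.92, 6.10 and 5.74 in Torin1 samples and 5.32, 5.04 and 5.59 in DMSO samples. The groups did not overlap, though Torin1 sample 3 and DMSO sample 3 were 0.15 log2 units apart. Its change of 0.60 ± 0.16 (SE) narrowly missed the call (adjusted p = 0.0529 in limma; 95% confidence interval 0.23 to 0.97). Across 17 alternative settings it was called in 7, among them without Torin1 sample 3 (adjusted p = 0.0374) and without DMSO sample 3 (adjusted p = 0.0393), and its adjusted p ran from 0.0183 to 0.149.

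Lifr (probe set 17310044; chromosome 15), the chain for LIF, measured 5.56, 5.45 and 6.18 in Torin1 samples 1, 2 and 3, against 6.27, 5.99 and 6.23 in DMSO samples. Torin1 samples 1 and 2 were below every DMSO sample, and Torin1 sample 3 was among them. The change of -0.43 ± 0.19 (SE) was not called (adjusted p = 0.237 in limma; 95% confidence interval -0.89 to 0.03). Without Torin1 sample 3 it was -0.66 ± 0.11 and was called lower (adjusted p = 0.00997), so the result for Lifr rests on that sample. In that setting 6 of the 10 genes were called higher and 1 lower, while 6.26% of all genes were called higher and 7.64% lower.

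Osmr and Lifr lie on the same stretch of chromosome 15 in RefSeq's GRCm38.p6 annotation, with 0 protein-coding genes and 3 other genes between them. Their changes were 0.57 and -0.43. The level of Osmr minus that of Lifr averaged -1.93 ± 0.45 in Torin1 and -2.93 ± 0.13 in DMSO samples (SD, n = 3 each). An exact permutation test of this difference between groups gave p = 0.1. That is the smallest p that 3 against 3 samples allow, so the test could not fall below 0.05. The pair was chosen after its values were seen.

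Il6st (probe set 17289889; chromosome 13), the shared chain, measured 8.54, 8.59 and 8.58 in Torin1 samples and 8.63, 8.53 and 8.60 in DMSO samples. The groups overlapped and the 6 values spanned about 0.1 log2 units. Its change was -0.01 ± 0.07 (SE; adjusted p = 0.952 in limma), with a 95% confidence interval of -0.18 to 0.15.

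Stat3 (probe set 17269717; chromosome 11) measured 8.39, 8.46 and 7.91 in Torin1 samples 1, 2 and 3, against 7.83, 8.07 and 8.23 in DMSO samples. Torin1 samples 1 and 2 were the highest of all, and Torin1 sample 3 fell among the DMSO samples. The change of 0.21 ± 0.17 (SE) was not called (adjusted p = 0.573 in limma; 95% confidence interval -0.19 to 0.61), nor was it called without Torin1 sample 3, where it was 0.38 (adjusted p = 0.112). The arrays measure the transcript and not the phosphorylated protein.

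For Socs3 (chromosome 11) the probe sets disagreed. The brighter one, 17272619, measured 4.47, 4.39 and 4.21 in Torin1 samples and 3.99, 4.52 and 4.25 in DMSO samples, with a change of 0.10 ± 0.15 (SE) that was not called (adjusted p = 0.789 in limma; 95% confidence interval -0.24 to 0.44). The other, 17547600, measured 4.39, 4.53 and 4.43 in Torin1 samples and 3.91, 3.82 and 3.86 in DMSO samples. On this probe set the groups did not overlap, and in a fit over all probe sets naming 1 gene the change was 0.59 ± 0.07 (SE, adjusted p = 0.00373 in limma). Both lie near the median gene. With the probe sets averaged the change was 0.34 (adjusted p = 0.0446), so the call for Socs3 depends on which probe set is read.

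**Figure D3:**
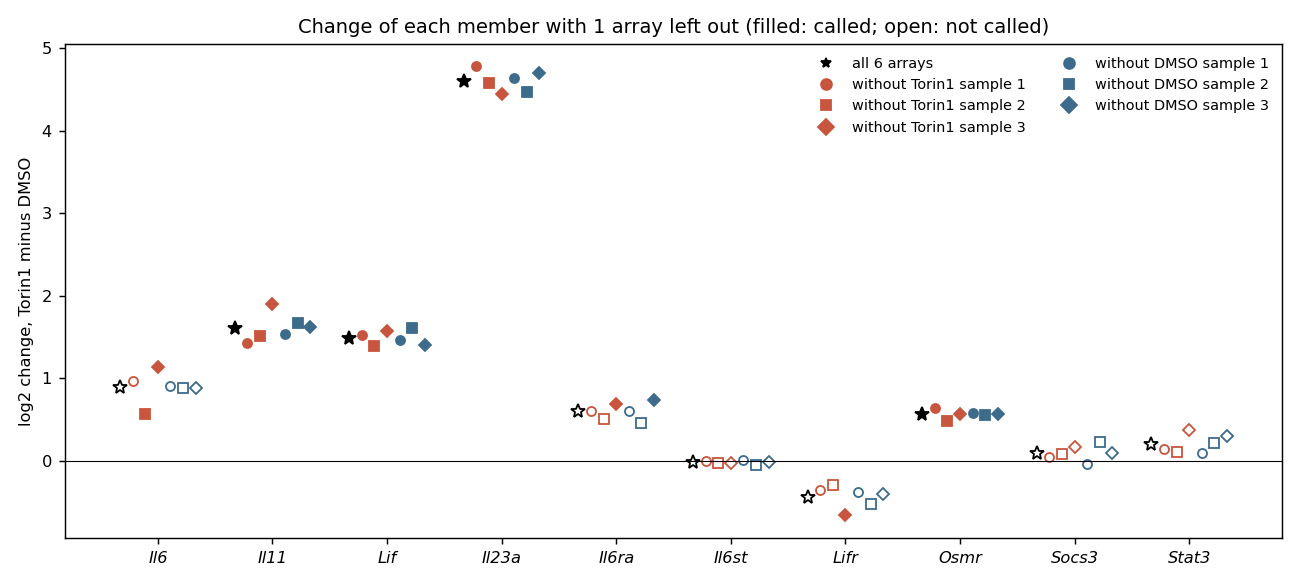
Log2 change of each gene over all 6 arrays (star) and with 1 array left out; filled symbols are called and open symbols are not. Il11, Lif, Il23a and Osmr are filled in all 6 leave-outs, Il6 is filled without Torin1 sample 2 or 3, Il6ra without Torin1 sample 3 or DMSO sample 3, and Lifr without Torin1 sample 3.

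The other genes of the pathway were taken from lists chosen with earlier results of these data known. Among 7 other IL6-family ligand genes the median change was 0.06, with 1 gene called higher, 0 lower and 6 not called. The shares called over all genes were 5.13% higher and 6.94% lower. The riser was Clcf1, which encodes cardiotrophin-like cytokine factor 1, a ligand of the CNTFR, LIFR and gp130 complex. It measured 6.62, 6.80 and 5.31 in Torin1 samples 1, 2 and 3, against 3.88, 4.07 and 3.80 in DMSO samples. All Torin1 samples were higher, Torin1 sample 3 the least, and the change was 2.33 ± 0.36 (SE, adjusted p = 0.00774 in limma; 2.79 ± 0.11 without Torin1 sample 3). Of the 3 measured receptor genes Cntfr, Il27ra and Il31ra, limma called 0, and 0 passed at an unadjusted p below 0.05. Il31ra changed by 0.26 ± 0.13 (SE) and Cntfr by 0.59 ± 0.40, and in Cntfr 1 sample, Torin1 sample 3 at 5.40, lay far above the others, which ranged from 3.67 to 4.08.

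Janus kinase and other STAT genes, 8 in number, had a median change of -0.23, with 1 called lower, 0 higher and 7 not called. For comparison, limma called 6.94% of all genes lower and 5.13% higher. Stat2, known from interferon signalling, fell by 0.99 ± 0.14 (SE, adjusted p = 0.00547 in limma), at 5.44 ± 0.23 in Torin1 and 6.43 ± 0.18 in DMSO samples (SD, n = 3 each). Jak1 and Jak2, kinases that dock on gp130, changed by -0.37 ± 0.10 and 0.38 ± 0.11 (SE) and were not called (adjusted p = 0.0636 and 0.0675), although both were without Torin1 sample 3 (adjusted p = 0.0344 for Jak1 and 0.0406 for Jak2). Other SOCS genes and negative regulators numbered 15, of which 1 was called lower, 0 higher and 14 not at all, and their median change was below 0.01. Socs2, an inhibitor of growth hormone signalling, averaged 7.20 ± 0.55 in Torin1 and 8.47 ± 0.27 in DMSO samples (SD, n = 3 each) and fell by 1.27 ± 0.27 (SE, adjusted p = 0.0258). That call was lost without Torin1 sample 1, Torin1 sample 2, DMSO sample 1 or DMSO sample 3 (adjusted p up to 0.0907), with a pseudocount of 16 (adjusted p = 0.0553) and with the sample number as a replicate block (adjusted p = 0.0510). Cish, a feedback gene of STAT5, changed by 1.14 ± 0.32 (SE, adjusted p = 0.0667) and was called higher without Torin1 sample 3 (0.75, adjusted p = 0.0255).

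Known STAT3 target genes were called in 1 direction. The median change of the 22 measured was 0.25, with 6 called higher, 0 lower and 16 not called. Over all genes limma called 5.13% higher and 6.94% lower. Junb, a subunit of AP-1, rose by 2.75 ± 0.17 (SE, adjusted p = 0.000218 in limma) and Bcl6, a transcriptional repressor, by 2.01 ± 0.17 (adjusted p = 0.00068). Cebpb, which encodes a C/EBP factor, rose by 1.36 ± 0.12 and Hif1a, the hypoxia-inducible factor, by 0.80 ± 0.11. These genes respond to other signals as well. Without Torin1 sample 3 the list had 10 rises and 1 fall, while limma called 6.26% of all genes higher and 7.64% lower. The fall was Myc, which was at 6.07, 5.76 and 7.82 in Torin1 samples 1, 2 and 3, against 8.04, 7.63 and 7.52 in DMSO samples. Its change was -1.82 without Torin1 sample 3 (adjusted p = 0.00103 in limma) and -1.18 with it (adjusted p = 0.210). Timp1, Pim1, Bcl3 and Tnfrsf1a were the rises that were added. Among them Timp1, an inhibitor of matrix proteases, measured 5.58, 6.34 and 4.35 in Torin1 samples 1, 2 and 3, against 4.46, 4.21 and 4.52 in DMSO samples.

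Other cytokine and chemokine genes were read as a group. Of 21 measured, limma called 0 in either direction, with 1 higher at an unadjusted p below 0.05 (11.3% of all genes were), and the median change was -0.01. The 2 smallest p-values belonged to the neutrophil chemokine genes Cxcl1 and Cxcl2. Cxcl1 measured 4.87, 5.07 and 5.89 in Torin1 samples, against 4.22, 4.34 and 4.58 in DMSO samples, a change of 0.90 ± 0.26 (SE, adjusted p = 0.0704), and it was called higher without Torin1 sample 3 (0.59, adjusted p = 0.0265). Of 13 NF-kappa B pathway and feedback genes 5 were called higher and 1 lower while 7 were not called, and their median change was 0.46. Among all genes limma called 5.13% higher and 6.94% lower. Nfkb2 and Relb, the pair of the non-canonical pathway, rose by 1.27 ± 0.17 and 0.84 ± 0.09 (SE), Rela, a subunit of canonical NF-kappa B, by 0.72 ± 0.09, and Nfkbie, an inhibitor, by 0.49 ± 0.09. Nfkbiz, a nuclear regulator, rose by 0.46 ± 0.11, and Tnip1, which dampens the pathway, fell by 0.43 ± 0.09. Both were named after their values were seen, and each lost its call with the replicate block and in 5 of the 6 leave-outs (adjusted p up to 0.107 for Nfkbiz and 0.101 for Tnip1), Nfkbiz in all but that of DMSO sample 3 and Tnip1 in all but that of Torin1 sample 3.

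**Figure D4:**
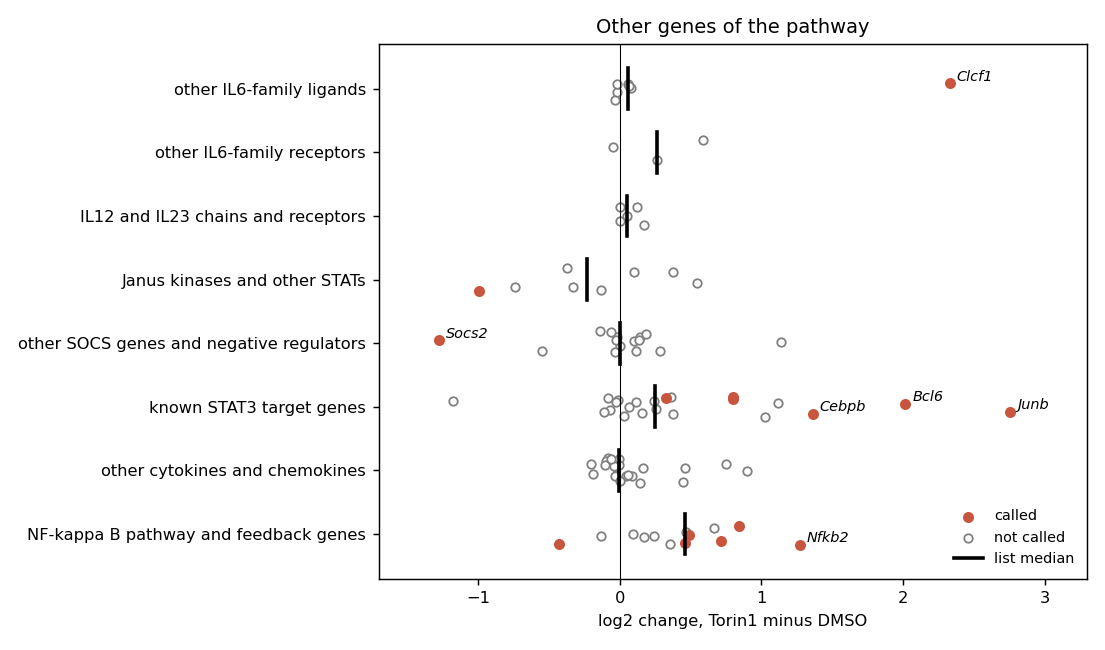
Log2 change, Torin1 minus DMSO, of each measured gene of the 8 pathway lists; filled points are called, open points are not, and the black bar is the list's median. Clcf1 at 2.33, Junb at 2.75 and Bcl6 at 2.01 lie farthest to the right, and Socs2 at -1.27 is the called gene farthest to the left.

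Markers of other cells were read from the same arrays, on which limma called 5.13% of all genes higher and 6.94% lower. Of 16 measured leukocyte markers 1 rose and 15 were not called, and 14 had a mean below the median gene. The riser was Cd68, a lysosomal protein of macrophages, which averaged 4.93 ± 0.20 in Torin1 and 4.39 ± 0.01 in DMSO samples (SD, n = 3 each; adjusted p = 0.0186 in limma). The pan-leukocyte marker Ptprc was at 3.07 ± 0.10 in Torin1 and 3.04 ± 0.12 in DMSO samples, and the summed intensity of the list ran from 188.0 to 201.5 in Torin1 and from 170.3 to 187.0 in DMSO samples. Endothelial markers had 1 rise among 9, Cdh5, and summed intensities of 179.4 to 294.3 in Torin1 and 131.1 to 133.5 in DMSO samples. Cdh5 itself made up most of that gap, at 6.43 ± 0.84 in Torin1 and 4.10 ± 0.04 in DMSO samples (SD, n = 3 each). The median change of the endothelial list was 0.09. Of 9 theca or stroma markers 2 fell, Pdgfra and Acta2, and the sums were 163.9 to 177.1 in Torin1 and 443.6 to 516.0 in DMSO samples. Most of that difference was Acta2, smooth muscle actin, which averaged 5.56 ± 0.15 in Torin1 and 8.43 ± 0.16 in DMSO samples (SD, n = 3 each), whereas the median change of the list was -0.02.

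Markers of the complex itself were read in the same way. Of 11 granulosa or cumulus markers 9 fell and 1 rose, while limma called 6.94% of all genes lower and 5.13% higher. Inhba was the riser, with a change of 2.06 ± 0.21 (SE, adjusted p = 0.00144 in limma), and Nr5a1 was not called (0.0044). The sums were 2458 to 3073 in Torin1 and 4693 to 5114 in DMSO samples. All 13 oocyte markers had a change above 0, 2 of them called (Dppa3 and Figla), with a median of 0.23 and sums of 6014 to 6588 in Torin1 and 5380 to 5764 in DMSO samples. The part of such shifts in the ligand and receptor results was not tested.

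Genes whose pattern over the 6 arrays was most like that of a ligand were found by Pearson correlation among named genes brighter than the median gene. For Il23a they were Il1rap, a receptor chain shared by IL1-type cytokines (r = 0.9988, change 1.47), and Flvcr1, a heme exporter gene (r = 0.9987, change 1.67). For Il11 they were Fam181b (r = 0.9988, change 1.29) and Maml1, a Notch co-activator gene (r = 0.9986, change 0.59). Lif was matched by Bicra (r = 0.9981, change 0.18) and Hhipl1 (r = 0.9978, change 1.83), and Il6 by Mettl6 (r = 0.9957, change 0.25) and Parl (r = 0.9946, change 0.14). All of these points share the same 6 arrays and their split into Torin1 and DMSO samples, which enters each r. These genes were also picked for the highest r among all those searched, so values near 1 come with that choice. Shared regulation was not tested.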

How the data were processed

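RNA of 3 Torin1 and 3 DMSO samples was measured on Affymetrix-type arrays. The deposited intensities, 1 per probe set and array on a linear scale from 2.25 to 3268, were processed by the authors. The submitters' processing notes name RMA, Affymetrix Expression Console 1.1 and GCOS, and the sources used here give neither settings nor a genome build. RMA normalizes arrays to a common distribution, so changes are relative to the other transcripts.

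Probe sets naming exactly 1 gene in the platform's table were kept (23521 of 41345, giving 22180 genes), the brightest per gene by mean log2(intensity + 1). All 6 arrays entered 1 linear model without covariates or a dim-gene filter (limma 3.58.1 under R 4.3.3, moderated by eBayes), tested two-sided. Adjustment was by the Benjamini-Hochberg method across the whole table, with calls below 0.05. Array number limits precision. Members and lists were chosen with earlier results of these data known. Named genes were all 10 members and, per list, up to 4 called genes with the largest change, or, in lists without a call, the 2 lowest p-values. Added after their values were seen were Nfkbiz, Tnip1, Jak1, Jak2, Cish, Myc, Timp1, Pim1, Bcl3, Tnfrsf1a, Il23r, and the markers named. Some listed genes are not analysed here. Promoter windows came from RefSeq (GRCm38.p6). Alternatives were other pseudocounts, a dim-gene filter, array scaling, probe set averaging, variance models, array weights, a replicate block, and leaving out or merging samples.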

Additional observations from a re-analysis of the deposited data

How the results depend on the processing

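Il11, Lif, Il23a and Osmr kept their direction and call in all alternatives in which they were tested. Their changes were 1.01 to 1.90, 0.85 to 1.61, 3.83 to 4.78 and 0.25 to 0.64. Osmr came close to losing its call in limma, with the replicate block (adjusted p = 0.0493) and without DMSO sample 3 (adjusted p = 0.0488). Osmr and Il6 are too dim to enter the fit without dim genes. Il6 was called with array weights (0.95) and with Torin1 samples 2 and 3 as 1 (0.86), and ranged from 0.57 to 1.14 with 1 sample left out. Il6ra was called without a pseudocount (0.61), without dim genes (0.60), after quantile normalization (0.65), with a variance trend and robust fit (0.60) and with array weights (0.57), and ranged from 0.46 to 0.74 with 1 sample left out. Lifr was called lower with array weights (-0.57), and ranged from -0.66 to -0.29 with 1 sample left out. Socs3 was called for its dimmer probe set (0.59) and the mean of its probe sets (0.34); with 1 sample left out it ranged from -0.031 to 0.24, below 0 without DMSO sample 1. Il6st changed sign on median-centred arrays (0.0085) and ranged from -0.043 to 0.0091 with 1 sample left out, above 0 without DMSO sample 1 or Torin1 sample 1 (0.00037), and was called in none. Stat3 was also called in none (0.10 to 0.38). The number of members called higher lay between 4 and 6, and of members called lower it was 1 with array weights, 0 to 1 with 1 sample left out and 0 otherwise. Over all genes 2678 were called, 1518 to 3083 with 1 sample left out and 1565 with the replicate block. Deviations of same-numbered samples correlated at -0.207, -0.300 and -0.148, and none was most like its own number. With 3 samples per group this gives no sign that the numbers of the titles pair the samples, but it cannot exclude pairing. With the replicate block Il11, Lif, Il23a and Osmr stayed called. Signal over background was not available for each probe, so how far the dim levels of Il6, Osmr and Il12b exceed background was not tested.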
